A study of Mus musculus with 35 samples.

Results

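The genes Dbp, Tef, Hlf, Nfil3, Bhlhe40, Bhlhe41 and Ciart, which carry the output of the circadian clock or feed back on it, were followed in regulatory T cells (Tregs). They were taken by symbol from the gene count table, 7 of its 55011 symbols, and all 7 were among the 15910 genes kept by the filter on low counts. Tregs are CD4+ T cells that restrain immune responses. Each library was made from 1000 CD4+ CD25+ cells, double sorted from the visceral adipose tissue (VAT) or the spleen of wild-type male C57BL/6 mice. All groups were retired breeders over 35 weeks old on a cycle of 12 h light and 12 h dark, with no treatment named in the labels. Both tissues were sampled at Zeitgeber time (ZT, in hours from lights on) 0, 4, 8, 12, 16 and 20. There were 3 libraries per tissue and time, except for 2 from VAT at ZT20, so that 17 VAT and 18 spleen libraries were compared. The labels name replicates by letter and do not call them separate animals. The p-values therefore rest on the variation among these libraries, which may be technical.

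The molecular clock turns on a pair of activators, CLOCK and BMAL1, which bind E-box sequences and switch on their own repressors. DBP, TEF and HLF, the PAR bZIP factors, are made under that control in many tissues and pass the rhythm on by activating genes with D-box sequences. NFIL3, also called E4BP4, binds the same D-boxes and mostly represses. BHLHE40 (DEC1), BHLHE41 (DEC2) and CIART (CHRONO) repress the CLOCK and BMAL1 pair, the first pair of these by competing at E-boxes. In T cells NFIL3 and BHLHE40 are also known as regulators of cytokine genes that respond to activation.

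Total counts per library ran from 2178238 to 6260185 in VAT (median 4104617) and from 2069319 to 5328695 in spleen (median 3181086.5). Levels are given as CPM (counts scaled to a common library size with TMM factors). The factors lay between 0.8123 and 0.9319 in VAT and between 1.068 and 1.168 in spleen. The Treg marker list was high in all libraries, with a summed level of 4850 to 6470 CPM in VAT and 2500 to 3170 CPM in spleen, and Foxp3, the defining Treg factor, averaged 711 and 521 CPM. Macrophage markers summed to 0.726 to 8.49 CPM in VAT and 20.4 to 83.9 CPM in spleen, natural killer cell markers to 0 to 3.88 and 1.3 to 4.97 CPM, neutrophil markers to 0 to 1.74 and 0 to 3.1 CPM, and stromal markers to 0.726 to 6.8 and 0 to 4.39 CPM. Adipocyte markers summed to 3.63 to 23 CPM in VAT and 17.3 to 33.3 CPM in spleen, led by Lipe, with the defining adipocyte gene Adipoq at 0.096 and 0.486 CPM. B cell markers were higher in spleen (1200 to 3080 CPM against 93.6 to 302 CPM, led by Ighm), as were endothelial markers (158 to 341 CPM against 22.9 to 52.7 CPM, led by Pecam1). The other endothelial markers, Cdh5, Kdr and Tek, averaged at most 0.778 CPM in either tissue. Lists with a higher median sum in VAT were, besides the Treg list and the stromal list, plasma cell (332 to 458 CPM against 104 to 215 CPM, led by Xbp1), conventional CD4 T cell (18.8 to 95.3 CPM against 13.6 to 35.1 CPM, led by Cd40lg), dendritic cell (13.8 to 54.9 CPM against 11.1 to 34.2 CPM, led by Xcr1 in VAT) and CD8 T cell (1.76 to 36.8 CPM against 6.36 to 21.2 CPM). Of these lists, the ranges of the tissues did not overlap for Treg and plasma cell. The plasma cell sum in VAT rested on Xbp1 (mean 267 CPM, with 133 CPM in spleen) and Prdm1 (130 and 22.1 CPM). Jchain, from the same list, went the other way, with a mean of 0.673 CPM in VAT and 10.7 CPM in spleen. Sdc1 averaged at most 0.493 CPM in either tissue. In the dendritic cell list Xcr1 alone was higher in VAT (20.1 CPM, with 0.477 CPM in spleen). Zbtb46 (5.9 and 15.4 CPM), Clec9a (0.197 and 0.351), Flt3 (0.676 and 0.721) and Itgax (0.309 and 0.327) were lower there. In the CD8 T cell list Cd8b1 was higher in VAT (14.7 and 11.9 CPM) and Cd8a lower (0.233 and 0.662 CPM). Whether the shares of plasma, dendritic or CD8 T cells differed was not tested. The 10 immediate early genes, which are switched on within minutes of cell stimulation, summed to 34280 to 49280 CPM in VAT and 780.5 to 1344 CPM in spleen.

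In the GRCm38 (mm10) annotation of GENCODE M21, Dbp lies at chr7:45705088-45710203 on the plus strand, Tef at chr15:81802421-81826863 on the plus strand and Hlf at chr11:90336536-90390895 on the minus strand. Nfil3 lies at chr13:52967209-52981073 on the minus strand. Both DEC genes are on chromosome 6, Bhlhe40 at chr6:108660629-108666925 on the plus strand and Bhlhe41 at chr6:145858243-145865558 on the minus strand. Ciart lies at chr3:95878503-95882251 on the minus strand. Exons of Dbp overlap those of Sphk2 on the opposite strand over 539 bp, and the strand setting of the counting is not given in the sources used here, so reads of that stretch cannot be assigned to either gene. Sphk2, a sphingosine kinase, averaged 15.8 CPM in VAT and 25.1 CPM in spleen. The opposite-strand transcripts that overlap exons of Tef (Gm17597, 193 bp), Bhlhe40 (0610040F04Rik, 118 bp) and Bhlhe41 (Gm43909, 1280 bp) averaged at most 0.354 CPM in either tissue.

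RefSeq promoter windows on GRCm38.p6, from 250 bases before to 50 bases after a transcript start, were found for 6 of the 7 genes, with 7 windows in all because Tef has a pair of starts. Each window was searched on both strands for the E-box CACGTG, its variant CACGTT, the D-box TTANGTAA, the ROR response element and the cyclic AMP element TGACGTCA. The windows below are those with an E-box. Tef is shown because its RNA followed a daily wave, and Ciart and Bhlhe41 because they are repressors of the E-box activators. Capitals mark CACGTG, and each sequence runs 5′ to 3′ on the strand of its gene.
Tef start 1, chr15:81802423-81802722, plus strand: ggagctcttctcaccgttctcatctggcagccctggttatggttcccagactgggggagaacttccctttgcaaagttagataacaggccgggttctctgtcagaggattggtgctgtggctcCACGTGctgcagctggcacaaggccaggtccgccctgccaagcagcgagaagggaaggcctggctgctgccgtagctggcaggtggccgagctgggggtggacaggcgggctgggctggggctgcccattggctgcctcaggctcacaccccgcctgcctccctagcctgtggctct
Tef start 2, chr15:81811164-81811463, plus strand: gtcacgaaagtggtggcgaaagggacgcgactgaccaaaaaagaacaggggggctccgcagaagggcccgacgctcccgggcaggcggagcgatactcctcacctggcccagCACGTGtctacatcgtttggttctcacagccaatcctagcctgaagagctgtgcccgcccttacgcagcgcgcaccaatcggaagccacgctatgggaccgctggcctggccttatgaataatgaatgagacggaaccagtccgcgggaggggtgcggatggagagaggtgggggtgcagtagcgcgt
Ciart, chr3:95882179-95882478, minus strand: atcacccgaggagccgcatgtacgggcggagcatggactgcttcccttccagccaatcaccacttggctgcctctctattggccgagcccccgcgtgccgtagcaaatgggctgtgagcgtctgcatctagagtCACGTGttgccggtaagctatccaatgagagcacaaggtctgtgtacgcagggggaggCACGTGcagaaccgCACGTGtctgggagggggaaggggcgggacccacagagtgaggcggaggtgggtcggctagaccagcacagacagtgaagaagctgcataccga
Bhlhe41, chr6:145865371-145865670, minus strand: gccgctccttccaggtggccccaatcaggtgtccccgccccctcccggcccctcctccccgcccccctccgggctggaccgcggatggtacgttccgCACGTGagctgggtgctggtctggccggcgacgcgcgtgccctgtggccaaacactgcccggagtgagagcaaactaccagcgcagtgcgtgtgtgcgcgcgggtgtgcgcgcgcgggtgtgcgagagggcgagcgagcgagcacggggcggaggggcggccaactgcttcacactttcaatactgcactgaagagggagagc

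The first base of the E-box stood at -127 from Tef start 1 and at -138 from Tef start 2. Ciart held 3 E-boxes, at -116, -58 and -44, and Bhlhe41 held 1, at -153. Of 32544 mouse promoter windows of the same length, 7.17% held CACGTG at least 1 time and 0.0891% (29 windows) at least 3 times. Hlf held the cyclic AMP element TGACGTCA at -9, a match found in 1.8% of windows. The Dbp and Nfil3 windows held none of the motifs searched. No window of these genes held CACGTT, TTANGTAA or the ROR response element, found in 4.71%, 2.29% and 0.608% of all windows. A match describes the letters of the window and is not a measured binding site.

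The first comparison asked how the level of each gene differed between Tregs of the 2 tissues, with the 6 times given equal weight. Of the 7 genes, 5 were higher in VAT Tregs, Hlf 14.5-fold, Nfil3 13.9-fold, Bhlhe41 7.89-fold, Ciart 2.53-fold and Bhlhe40 2.35-fold. Dbp and Tef did not pass the test. By edgeR's quasi-likelihood test with Benjamini-Hochberg adjustment over all genes tested, 28.4% of all genes were called higher in VAT, 33.8% lower and 62.2% in either direction, so a call in this contrast was common. The median log2 difference of the 7 genes was 1.34, beside -0.10 over all genes. With plain library totals in place of TMM factors the median over all genes moved to -0.45 and the called genes split into 2856 higher of 11370, against 4520 higher of 9896. The same 5 genes were called under both scalings, and the values of Dbp and Tef turned below 0 with library totals. In sorted bulk samples, a larger share of cells that express a gene and more RNA per cell cannot be told apart.

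**Figure D1:**
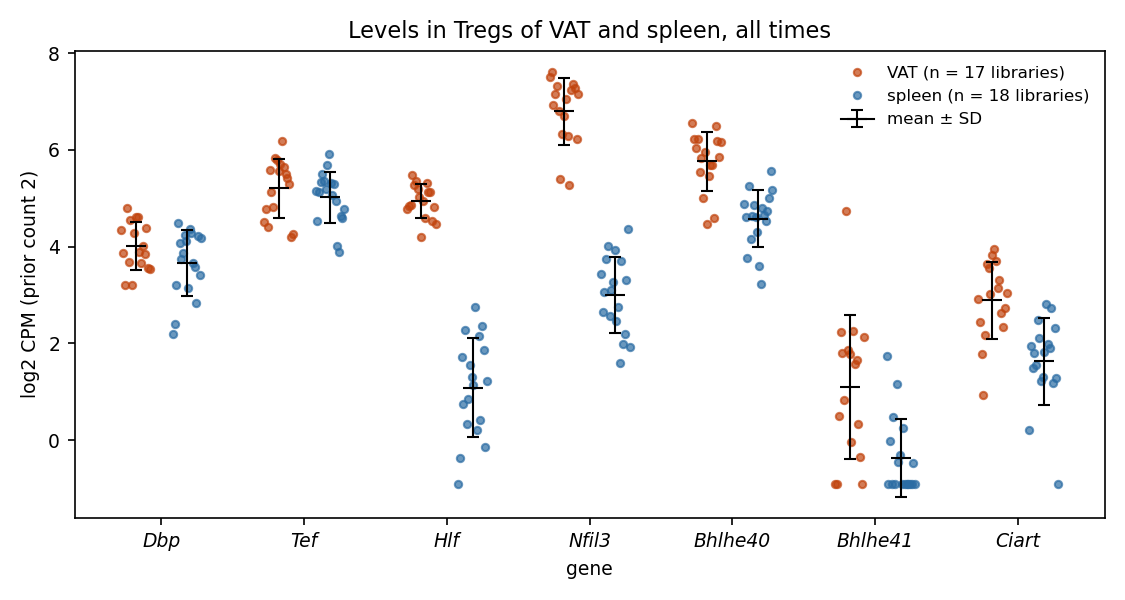
Level of each of the 7 genes in log2 CPM (prior count 2) on the y axis, with 1 point per library for VAT (17 libraries) and spleen (18 libraries) over all times, and the mean ± SD in black. All VAT points lie above all spleen points for Hlf and Nfil3, and the tissues overlap for the other 5 genes, with the direction for Dbp and Tef depending on the scaling.

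Among the D-box activators, Hlf stood apart between the tissues. It ranged from 17.8 to 44.3 CPM in VAT (median 30.2) and from 0 to 6.19 CPM in spleen (median 1.74). Every VAT library lay above every spleen library, as for 6.4% of all genes. The log2 difference was 3.86 ± 0.26 (SE; 14.5-fold; edgeR adjusted p = 9.77e-15). The separation held at each of the 6 times, where the ratio of the means ran from 9.77 to 28. Of the spleen libraries, 1 at ZT0 had no Hlf count, which allows up to 0.93 CPM at 3 counts. Such limits cover counting error only, since PCR reads without molecular identifiers are not independent molecules.

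Dbp, the member of the family most often used as a marker of clock output, ranged from 8.71 to 27.4 CPM in VAT (median 14.4) and from 4.03 to 22.0 CPM in spleen (median 13.5). The libraries of the tissues overlapped over most of that range. The log2 difference was 0.34 ± 0.16 (edgeR adjusted p = 0.0716), and it was -0.01 (adjusted p = 0.962) with library totals. Dbp was called higher in VAT when VAT ZT0 C, spleen ZT0 C, VAT ZT4 C, VAT ZT8 B or VAT ZT12 D was left out, with values of 0.37 to 0.40 (adjusted p = 0.0298 to 0.0486). It was also called without the ZT20 libraries (0.49, adjusted p = 0.0173). Tef ranged from 17.8 to 72.3 CPM in VAT (median 42.1) and from 14.4 to 59.5 CPM in spleen (median 34.9). Its log2 difference was 0.13 ± 0.10 (edgeR adjusted p = 0.274), and -0.22 (adjusted p = 0.0551) with library totals.

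Nfil3, the repressor at D-boxes, ranged from 38.2 to 195 CPM in VAT (median 132) and from 2.51 to 20.02 CPM in spleen (median 7.93). As for Hlf, the lowest VAT library lay above the highest spleen library. The log2 difference was 3.79 ± 0.22 (13.9-fold; edgeR adjusted p = 2.91e-14), and the ratio of the means at single times ran from 7.04 at ZT8 to 23.4 at ZT16. Immediate early genes, which also mark stimulation, were higher in VAT in the same libraries, with a mean sum per time of 37300 to 47600 CPM against 801 to 1280 CPM, and their part in the Nfil3 and Bhlhe40 differences was not tested.

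The 3 repressors of CLOCK and BMAL1 were called higher in VAT, 3 of 3, beside 28.4% of all genes. Bhlhe40 ranged from 21.6 to 94.2 CPM in VAT (median 57.5) and from 8.79 to 46.9 CPM in spleen (median 24.6), a log2 difference of 1.23 ± 0.17 (2.35-fold; edgeR adjusted p = 1.79e-07). Its libraries overlapped between tissues over all times, but all VAT libraries were above all spleen libraries at 4 of the 6 times, with ZT8 and ZT16 the exceptions. Ciart ranged from 1.39 to 14.99 CPM in VAT (median 7.64) and from 0 to 6.51 CPM in spleen (median 2.98), a log2 difference of 1.34 ± 0.28 (2.53-fold; edgeR adjusted p = 7.93e-05). It separated the tissues at ZT8, ZT12 and ZT20, and 1 spleen library at ZT20 had no count, which allows up to 1.08 CPM.

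Bhlhe41 was the least abundant, with 177 counts over the VAT libraries and 25 over the spleen libraries. It ranged from 0 to 26.1 CPM in VAT (median 2.43) and from 0 to 2.79 CPM in spleen (median 0), with 3 VAT and 10 spleen libraries at 0 counts. A count of 0 allows up to 0.749 to 0.97 CPM in those VAT libraries and 0.516 to 1.08 CPM in those spleen libraries. The fitted log2 difference was 2.98 ± 0.69 (edgeR adjusted p = 0.000356), a value that leans on the fit because all 3 spleen libraries at ZT16 were at 0. The VAT library ZT8 B held 72 of the 177 counts, and without it the difference was 2.68 (adjusted p = 0.00114). The call was lost without VAT ZT0 C (2.44) or VAT ZT20 C (2.00), which leaves a group with no counts and an adjusted p of 1 in each case.

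At single times, the share of all genes with every VAT library above every spleen library was 22% at ZT0, 20% at ZT4, 21.2% at ZT8, 19% at ZT12, 20.6% at ZT16 and 24.3% at ZT20. Hlf and Nfil3 were so separated at all 6 times, Bhlhe40 at 4, Bhlhe41 and Ciart at 3 each, Tef at 2 (ZT12 and ZT16) and Dbp at 1 (ZT16). At ZT16 the Bhlhe41 separation rested on VAT counts of 11, 4 and 1 against 0 in each spleen library. The lowest of these VAT libraries, at 0.25 CPM, lay below what a count of 0 allows in spleen (0.516 to 1.08 CPM). Of the genes followed here, Tef alone also had the opposite separation, at ZT20, where both VAT libraries lay below all 3 spleen libraries. The share of all genes with every VAT library below every spleen library was not determined, so this separation cannot be called unusual. Per kilobase of union exon length, which allows levels of different genes to be compared, Nfil3 led in VAT with a mean of 60.0 CPM per kb. It was followed there by Bhlhe40 (12.3), Dbp (5.50), Tef (5.03), Hlf (4.63), Ciart (3.49) and Bhlhe41 (0.490). In spleen the highest means per kb were those of Bhlhe40 (5.33), Dbp (4.49), Tef (4.31) and Nfil3 (4.28), and the lowest those of Ciart (1.34), Hlf (0.315) and Bhlhe41 (0.0589). This order depends on the length used, since the longest annotated transcript is shorter than the union of exons for Tef (4403 of 7867 bp), Dbp (1837 of 2993 bp) and Bhlhe40 (3113 of 4705 bp), but not for Nfil3 (2026 bp in both).

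The second comparison asked whether each gene followed a 24 h wave in each tissue. Tef did in both tissues, peaking around the end of the light phase in VAT and in the middle of the light phase in spleen. None of the other 6 genes passed the test in either tissue. Across all genes, edgeR's quasi-likelihood test called 1.88% in VAT and 1.99% in spleen, and 17.5% and 15.6% had an unadjusted p under 0.05. Among the 7 genes, 3 in VAT (Tef, Bhlhe41 and Bhlhe40) and 1 in spleen (Tef) had an unadjusted p under 0.05. The median fitted peak-to-trough amplitude of the 7 was 1.03 on the log2 scale in VAT, beside 0.52 over all genes, and 0.87 in spleen, beside 0.48.

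In VAT, Tef was at 22.2, 26.8 and 20.6 CPM at ZT0, and at 47.4, 34.6 and 27.8 CPM at ZT4. It was at 56.6, 55.2 and 46.8 CPM at ZT8, and at 51.5, 72.3 and 49.3 CPM at ZT12. It was at 44.6, 42.1 and 38.5 CPM at ZT16, and at 17.8 and 18.6 CPM at ZT20. The libraries of ZT8 and ZT12 overlapped and had the highest means, with 1 ZT4 library above the lowest of ZT8, and both ZT20 libraries lay below every other VAT library. The mean rose from 18.2 ± 0.57 CPM (SD, n = 2) at ZT20 to 57.7 ± 12.7 CPM (SD, n = 3) at ZT12, a ratio of 3.18. Down the order ZT12, ZT8, ZT16, ZT4, ZT0 and ZT20, the libraries did not overlap between ZT8 and ZT16, between ZT4 and ZT0, or between ZT0 and ZT20. The fitted wave had a peak-to-trough amplitude of 1.56 ± 0.21 log2 (2.95-fold) and a peak at ZT10.3 ± 0.50 h (edgeR adjusted p = 0.000613).

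In spleen, Tef was at 35.0, 22.4 and 34.7 CPM at ZT0, and at 39.9, 44.9 and 40.6 CPM at ZT4. It was at 36.1, 51.3 and 59.5 CPM at ZT8, and at 39.0, 33.2 and 38.5 CPM at ZT12. It was at 30.5, 15.6 and 14.4 CPM at ZT16, and at 24.3, 23.4 and 27.0 CPM at ZT20. The highest mean was at ZT8 (48.9 ± 11.9 CPM, SD, n = 3) and the lowest at ZT16 (20.2 ± 8.96 CPM, SD, n = 3), where 1 of the 3 libraries stood above the other two. Down the order ZT8, ZT4, ZT12, ZT0, ZT20 and ZT16, only ZT4 and ZT12 did not overlap among neighbours. The fitted wave had an amplitude of 1.18 ± 0.20 log2 (2.26-fold) and a peak at ZT6.5 ± 0.66 h (edgeR adjusted p = 0.00478). At ZT16, in the dark, all 3 VAT libraries were above all 3 spleen libraries, with a ratio of the means of 2.07, whereas at ZT20 and ZT0 the ratios were 0.73 and 0.756.

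**Figure D2:**
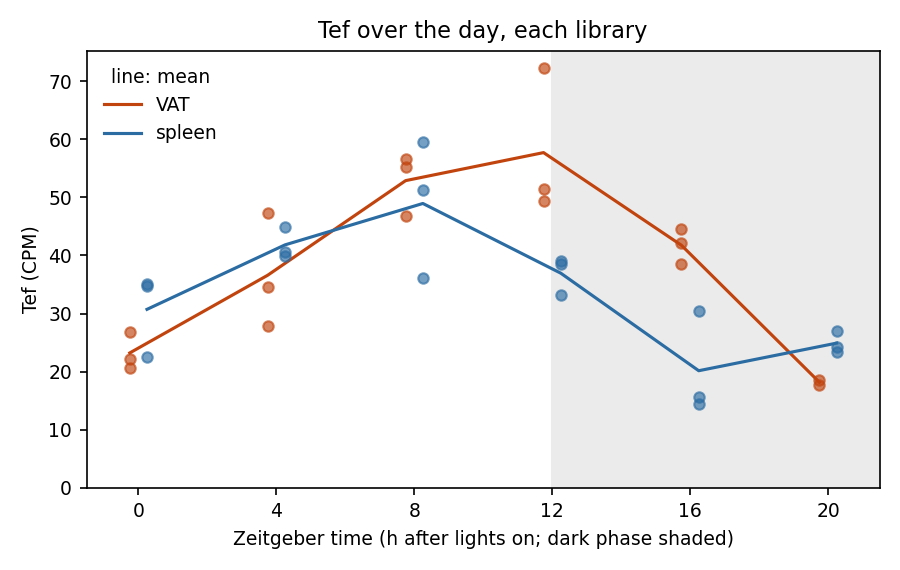
Tef in CPM on the y axis against Zeitgeber time in hours, with 1 point per library and a line through the means of VAT and of spleen, and the dark phase shaded. The VAT line is highest at ZT12 (57.7 CPM) and the spleen line at ZT8 (48.9 CPM), and the VAT libraries lie above those of spleen at ZT12 and ZT16 and below them at ZT20.

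The wave of Tef was tested between the tissues directly. The test took amplitude and peak time together, as the vector difference of the waves, which had a size of 1.33 ± 0.29 log2 (edgeR adjusted p = 0.104). The fitted peak in VAT lay 3.74 ± 0.83 h later than in spleen, a shift that was not tested by itself and whose SE combines those of the peaks. The unadjusted edgeR p of the vector difference, from the model fitted across all genes, was 0.000156. By edgeR 0 of the 7 genes were called for the vector difference, beside 0.00629% of all genes (1 gene). Of the 7, 1 (Tef) had an unadjusted p under 0.05, beside 9.09% of all genes. DESeq2 called 1 of the 7, Tef, with an adjusted p of 0.0219 (size 1.32), and so did edgeR with no filter on low counts (adjusted p = 0.012). Without each library in turn the adjusted p for Tef ran from 0.0718 to 0.21, and it was 0.0633 without the ZT20 libraries, 0.158 with a mean of at least 5 CPM and 0.188 with the 6 times as a factor.

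The VAT libraries at ZT20, where Tef was lowest, also differed in how counts spread over transcripts of different length. The slope of each library's deviation from its tissue mean on log2 transcript length averaged -0.107 there, against -0.0079 to 0.0377 at the other VAT times and -0.0547 to 0.0369 in spleen. With that slope as a covariate Tef kept its call in VAT (1.40 log2, adjusted p = 0.00637) and in spleen (1.01 log2, adjusted p = 0.0366). Without the ZT20 libraries the amplitude was 1.36 in VAT (adjusted p = 0.0173, peak at ZT10.6) and 1.38 in spleen (adjusted p = 0.00734, peak at ZT6.7). Leaving out each library in turn, the amplitude of Tef ran from 1.48 to 1.67 in VAT and from 1.06 to 1.27 in spleen, with an adjusted p of at most 0.0057 and 0.0227.

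Dbp, in contrast to Tef, was not called rhythmic. In VAT it was at 19.7, 14.2 and 8.72 CPM at ZT0, 27.4, 12.4 and 23.0 CPM at ZT4, and 8.71, 19.0 and 23.99 CPM at ZT8. In the later VAT groups it was at 23.9, 14.4 and 12.2 CPM at ZT12, 15.6, 14.0 and 20.3 CPM at ZT16, and 11.3 and 11.1 CPM at ZT20. Libraries of the same time differed by up to nearly the full range of the tissue, and neighbouring times in the order of means overlapped. The fitted amplitude was 0.56 ± 0.38 log2 with a peak at ZT7.6 ± 2.5 h (edgeR adjusted p = 0.689). It was 0.99 with the length slope as a covariate (edgeR adjusted p = 0.574) and 0.36 without the ZT20 libraries (0.94). With the 6 times as a factor no wave is fitted, and the highest and lowest times differed by 0.92 log2 (edgeR adjusted p = 0.683). The median of that range over all genes was 0.94.

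In spleen Dbp was lowest at ZT0, with 4.03, 4.77 and 8.73 CPM, and highest in mean at ZT4, with 22.0, 16.4 and 12.9 CPM. It was at 14.0, 18.3 and 16.9 CPM at ZT8, 8.34, 20.2 and 18.8 CPM at ZT12, 12.2, 11.4 and 6.61 CPM at ZT16, and 18.2, 10.2 and 17.7 CPM at ZT20. All 3 ZT4 libraries lay above all 3 ZT0 libraries, with a ratio of the means of 2.93. The fitted amplitude was 0.69 ± 0.36 log2 with a peak at ZT9.3 ± 2.0 h (edgeR adjusted p = 0.535). It was 1.13 with the length slope as a covariate (edgeR adjusted p = 0.325) and 1.70 without the ZT20 libraries (0.0975). With the 6 times as a factor the highest and lowest times differed by 1.54 log2 (edgeR adjusted p = 0.113), beside a median range of 0.80 over all genes. Dbp was not called in these fits. Hlf had no wave that passed the test. In VAT its highest mean was at ZT4, with libraries at 44.3, 38.1 and 40.3 CPM, and its lowest at ZT20, with 27.8 and 21.6 CPM. The amplitude was 0.36 ± 0.42 log2 in VAT (edgeR adjusted p = 0.873) and 1.00 ± 0.60 in spleen (adjusted p = 0.624), where the means of the times lay between 0.998 and 3.11 CPM. The VAT amplitude was 0.55 without VAT ZT8 D, and that of spleen was 0.51 without spleen ZT12 B and 1.67 without spleen ZT4 C (adjusted p = 0.293), with no call.

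Nfil3 and Bhlhe40 had their fitted VAT peaks late in the dark phase, away from that of Tef, but neither wave passed the test. In VAT Nfil3 was at 182, 195 and 121 CPM at ZT0, 142, 160 and 112 CPM at ZT4, and 41.4, 79.8 and 103 CPM at ZT8. It was at 132, 77.4 and 38.2 CPM at ZT12, 150.5, 163 and 156 CPM at ZT16, and 74.7 and 142 CPM at ZT20. The 3 libraries of ZT16 lay close together, while those of ZT8, ZT12 and ZT20 were widely spread. All ZT0 libraries lay above all ZT8 libraries, a ratio of the means of 2.22. The amplitude was 1.03 ± 0.40 log2 with a peak at ZT21.7 ± 1.4 h (edgeR unadjusted p = 0.0709, adjusted p = 0.336). In spleen the means lay between 4.57 CPM at ZT12 and 11.3 CPM at ZT4, with overlapping libraries, and the amplitude was 0.87 ± 0.51 log2 (adjusted p = 0.635).

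Bhlhe40 in VAT was at 94.2, 74.2 and 65.7 CPM at ZT0, 74.5, 46.0 and 56.1 CPM at ZT4, and 31.6, 61.2 and 21.6 CPM at ZT8. It was at 43.2, 51.0 and 51.4 CPM at ZT12, 23.7, 89.9 and 72.3 CPM at ZT16, and 57.5 and 71.2 CPM at ZT20. The ZT0 libraries lay above all those of ZT8, while ZT16 spanned nearly the whole range. The amplitude was 0.88 ± 0.34 log2 with a peak at ZT21.6 ± 1.4 h (edgeR unadjusted p = 0.0494, adjusted p = 0.283). In spleen Bhlhe40 was highest at ZT20, with 31.5, 46.9 and 35.3 CPM, and lowest in mean at ZT12, with 11.7, 8.79 and 27.3 CPM. Its fitted spleen peak lay at ZT21.9 ± 1.9 h with an amplitude of 0.68 ± 0.34 log2 (adjusted p = 0.516), or 0.30 without the ZT20 libraries (0.919), and the peaks of the tissues differed by -0.30 ± 2.4 h.

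Ciart in VAT was highest at ZT8 (11.2, 7.64 and 13.8 CPM) and ZT12 (14.99, 12.5 and 8.33 CPM). It was lowest at ZT0 (6.99, 4.92 and 2.91 CPM), and was at 1.39, 3.96 and 12.0 CPM at ZT4, 9.35, 5.70 and 4.50 CPM at ZT16, and 6.14 and 7.76 CPM at ZT20. The ZT12 libraries all lay above the ZT0 libraries, a ratio of the means of 2.42. The amplitude was 1.20 ± 0.53 log2 with a peak at ZT10.9 ± 1.7 h (edgeR unadjusted p = 0.0737, adjusted p = 0.341), and in spleen it was 0.76 ± 0.56 log2 (adjusted p = 0.744), or 0.47 without spleen ZT12 B. Bhlhe41 in VAT had counts of 0, 0 and 3 at ZT0, 15, 6 and 5 at ZT4, and 72, 11 and 10 at ZT8. It had counts of 2, 16 and 7 at ZT12, 11, 4 and 1 at ZT16, and 0 and 14 at ZT20. The fitted amplitude of 3.14 ± 1.15 log2 (peak at ZT8.7 ± 1.3 h, edgeR unadjusted p = 0.0144, adjusted p = 0.169) fell to 1.66 (adjusted p = 0.722) without VAT ZT8 B and was 5.22 (adjusted p = 0.0579) without VAT ZT20 C. In spleen no group of Bhlhe41 held more than 11 counts, and its amplitude there was 3.14 ± 1.79 log2 (adjusted p = 0.507).

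**Figure D3:**
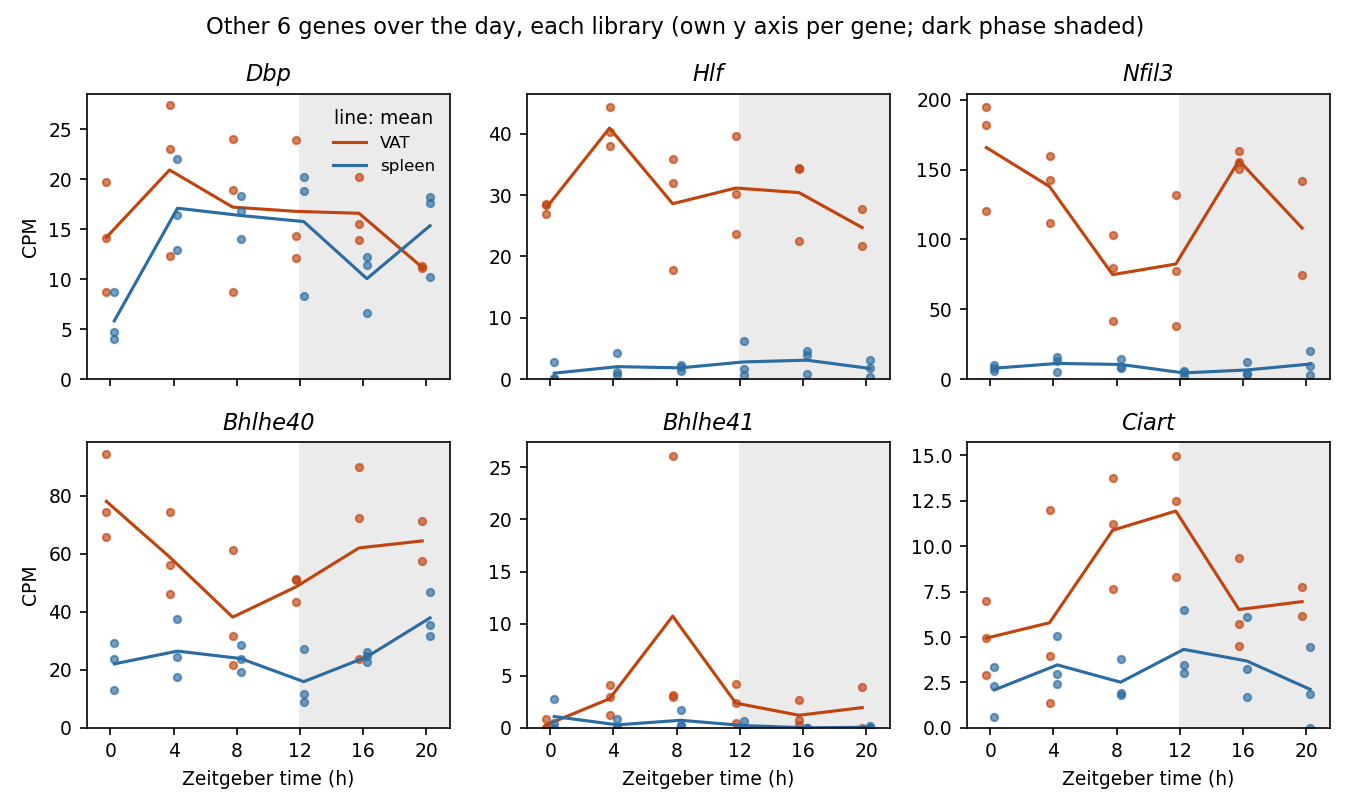
The other 6 genes in CPM against Zeitgeber time in hours, with 1 point per library, lines through the means of VAT and of spleen, the dark phase shaded and an own y axis for each gene. Nfil3 and Bhlhe40 dip in VAT at ZT8 (means 74.8 and 38.1 CPM), Ciart is highest in VAT at ZT12 (11.9 CPM), and 1 library sets the Bhlhe41 mean at ZT8.

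In VAT the highest and lowest times did not overlap for all 7 genes, as for 62.6% of all genes. In spleen this held for 3 of the 7 (Dbp, Tef and Bhlhe40), against 54.5% of all genes. The highest and lowest times were picked from the values themselves, so these counts are a description. With no filter on low counts, Nfil3 (adjusted p = 0.00234), Bhlhe40 (0.0397) and Bhlhe41 (0.0113) were also called rhythmic in VAT beside Tef, in a fit that called 1572 genes against 299.

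**Figure D4:**
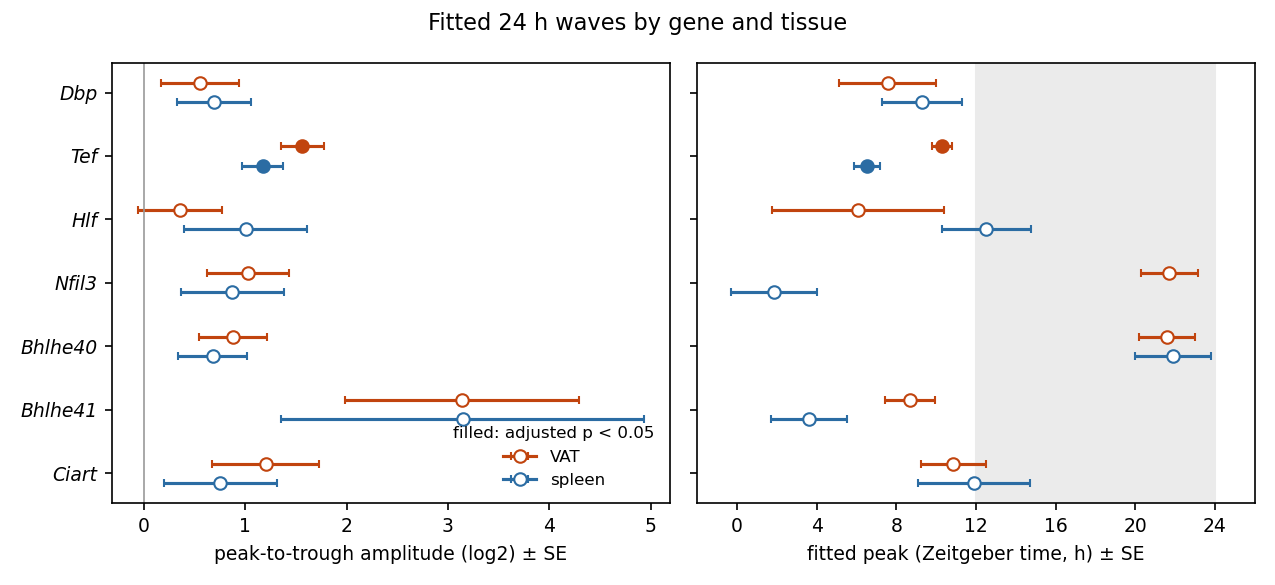
Fitted 24 h waves of the 7 genes in VAT and spleen, with the peak-to-trough amplitude (log2) on the left and the peak time (Zeitgeber hours, dark phase shaded) on the right, each with its SE, and filled circles for an adjusted p under 0.05. Tef is filled in both tissues, with peaks at ZT10.3 in VAT and ZT6.5 in spleen, and the other genes are open.

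The rest of the clock gives the setting of these genes. The counts below stand beside 28.4% of all genes called higher in VAT and 33.8% called lower, and the lists are small. Of the activators, 2 of 3 were called higher in VAT, Npas2 (3.98 ± 0.54 log2) and Arntl, which encodes BMAL1 (1.07 ± 0.08). Npas2 averaged 3.20 CPM in VAT and 0.411 CPM in spleen, so its size leans on the fit. Of the Period and Cryptochrome repressors 3 of 5 were called higher, Per1 (2.73 ± 0.07), Per3 (1.57 ± 0.16) and Cry1 (0.85 ± 0.11), and 2 were called lower, Per2 (-2.04 ± 0.24) and Cry2 (-0.80 ± 0.14). Of the nuclear receptors that act on ROR elements 4 of 5 were called higher, Rora (4.13 ± 0.07), Nr1d1 (2.65 ± 0.18), Rorb (1.81 ± 0.56) and Nr1d2 (1.01 ± 0.21). Rorb averaged 2.22 CPM in VAT and 0.732 CPM in spleen, so its size leans on the fit too. Of the enzymes that modify clock proteins, the kinase genes Csnk1e (1.17 ± 0.19) and Csnk1d (0.13 ± 0.06) were called higher. The value of Csnk1d was -0.21 with library totals (adjusted p = 0.00161, lower in VAT). Its call was lost without any 1 of 16 of the 35 libraries (adjusted p up to 0.113), and by DESeq2, with RLE factors, with no filter and with a mean of at least 5 CPM (0.0667 to 0.132).

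A 24 h wave in VAT was called for 1 of 3 activators, 1 of 5 repressors and 1 of 5 nuclear receptors, beside 1.88% of all genes. Arntl peaked at ZT0.2 ± 0.9 h (0.76 ± 0.17 log2, edgeR adjusted p = 0.0278), Nr1d2 at ZT9.4 ± 0.9 h (1.85 ± 0.44 log2, adjusted p = 0.048) and Per2 at ZT13.2 ± 0.7 h (3.04 ± 0.53 log2, adjusted p = 0.00453). Per2 averaged 2.73 CPM in VAT, so the size of its wave leans on the fit. The fitted Tef peak at ZT10.3 lay between those of Nr1d2, which encodes REV-ERB beta, and Per2. Leaving out single libraries ended the Nr1d2 call in 24 of 35 fits and the Arntl call in 6 (adjusted p up to 0.16 and 0.0711), and the Per2 call in 0. The Nr1d2 call was also lost with library totals, RLE factors, the length slope, VAT alone and no ZT20 libraries (adjusted p = 0.0518 to 0.411), and the Arntl call with the last pair of these (0.102 and 0.0666). In spleen, 1 gene of these 3 lists was called, Npas2 (peak at ZT15.3 ± 0.9 h, edgeR adjusted p = 0.018), beside 1.99% of all genes. Its mean there was 0.411 CPM, and the call was lost when spleen ZT16 A was left out (0.0505) or with the 6 times as a factor (0.0962).

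Genes reported as targets of the PAR bZIP factors in other tissues gave 1 call higher in VAT of 3 tested, near the 28.4% of all genes. Por, the cytochrome P450 reductase, averaged 195 CPM in VAT and 97.4 CPM in spleen (1.02 ± 0.07 log2), while Pdxk and Alas1 were at 0.15 ± 0.13 and 0.17 ± 0.10. None of these 3 was called rhythmic in either tissue (edgeR adjusted p in VAT of 0.296 for Por, 0.931 for Pdxk and 0.568 for Alas1). Of the T cell genes reported to be controlled by NFIL3 or DEC1, 5 of 6 tested were called higher in VAT, beside 28.4% of all genes. The cytokine genes Il10 (692 CPM against 2.73 CPM) and Csf2 (15.6 CPM against 0.216 CPM) differed most, by 8.0 ± 0.26 and 7.04 ± 0.58 log2, followed by the checkpoint gene Havcr2 (3.19 ± 0.32 log2). At so low a spleen level the size for Csf2 leans on the fit. Il2ra, which encodes the CD25 used for the sort, was 0.96 ± 0.05 higher, and Foxp3 0.45 ± 0.05. Of the 6, 1 (Il2ra) was called rhythmic in VAT (0.42 ± 0.10 log2, peak at ZT12.3 ± 1.0 h, edgeR adjusted p = 0.0425), beside 1.88% of all genes. That call was lost in 11 of the 35 fits without 1 library. It was also lost with RLE factors, the length slope, VAT alone and no ZT20 libraries (adjusted p = 0.0518 to 0.163).

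Genes that respond to glucocorticoid, a hormone with a daily rhythm of its own, had their highest mean sum at ZT12 in both tissues, 2350 CPM for VAT and 1570 CPM for spleen. Tsc22d3 (mean 771 CPM in VAT and 414 CPM in spleen) and Txnip (656 and 629 CPM) weigh most in that sum. Between the tissues 4 of the 6 were called higher in VAT, beside 28.4% of all genes, led by Sgk1 (2.91 ± 0.13 log2), Per1 and Fkbp5 (1.75 ± 0.09). Of the 6, 1 was called lower, beside 33.8% of all genes, Zbtb16 (-1.97 ± 0.73, lost without spleen ZT4 D or spleen ZT16 A). Zbtb16 averaged 0.313 CPM in VAT and 1.05 CPM in spleen, so its size leans on the fit. A wave was called for 3 of the 6 in VAT, Tsc22d3 (peak at ZT12.3 ± 0.7 h), Txnip (ZT11.0 ± 0.8 h) and Fkbp5 (ZT14.4 ± 1.0 h), and 1 in spleen, Tsc22d3 (ZT12.6 ± 0.4 h, edgeR adjusted p = 2.61e-06). Over all genes a wave was called for 1.88% in VAT and 1.99% in spleen. The VAT call of Tsc22d3 was lost without the ZT20 libraries (adjusted p = 0.0793). The Fkbp5 call was lost in 11 and the Txnip call in 2 (VAT ZT20 A and VAT ZT20 C) of the 35 fits without 1 library. Both were also lost with the length slope, without ZT20 and with VAT alone (adjusted p = 0.101 to 0.226), and Fkbp5 with library totals (0.0571) and RLE factors (0.052). Whether these genes bear on the Tef wave was not tested. Of the 10 immediate early genes, 10 were called higher in VAT, beside 28.4% of all genes. They were led by Atf3 (10.89 ± 0.30 log2), Fos (8.97 ± 0.25), Fosb (8.89 ± 0.23) and Dusp1 (6.36 ± 0.08). Atf3 and Fosb averaged 1.02 and 1.74 CPM in spleen, so their sizes lean on the fit. In VAT 0 of these genes were called rhythmic, and in spleen Dusp1 (ZT14.4 ± 0.5 h) and Junb (ZT15.8 ± 0.6 h) were. The difference of the waves between tissues was called for 0 genes of any of these lists by edgeR.

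The likeness of other genes to the courses was described over the 12 group means of log2 CPM, each centred within its tissue, among 9319 genes with a mean of at least 5 CPM in both tissues. These correlations share libraries and depth and carry no test. The courses most like that of Tef were those of Nudcd3 (Pearson r = 0.969), Ints5 (0.939) and Coro7 (0.936). For Dbp they were Ralgds (0.919), Ttc39c (0.894) and Fbrsl1 (0.878), for Nfil3 Gsk3b (0.902), Cd74 (0.851) and Tmem120b (0.83), and for Bhlhe40 Pabpn1 (0.881), Csad (0.872) and Tuba1b (0.86). Among the 4 genes themselves, Nfil3 and Bhlhe40 ran together (r = 0.696), Dbp and Tef less closely (0.492), and Tef and Bhlhe40 in opposite directions (-0.574). The other pairs lay between -0.146 and 0.144.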

How the data were processed

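Per the labels' protocols, cDNA was primed with oligo-dT, amplified by limited PCR, tagged with Nextera XT and read on a NextSeq500 as 25 nt pairs. The authors deposited a table of raw read counts by gene symbol. The submitters' processing notes name STAR 2.7.3a, featureCounts and the mm10 genome. The sources used here do not give the annotation, the strand setting or the handling of reads with several matches. Oligo-dT priming and amplification from 1000 cells leave genes of few counts imprecise.

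The counts were tested with edgeR 4.0.16 in R 4.3.3 (quasi-likelihood, robust, TMM factors, filterByExpr with a minimum count of 10 over the 12 groups, which kept 15910 genes and 99.1% to 99.8% of each library's counts). Tissues were compared as the mean of the VAT groups minus the mean of the spleen groups. The SE given with a tissue difference is its size divided by the square root of its F statistic, so it is derived from the test. Waves were fitted as a cosine and sine of 24 h per tissue in 1 model of all 35 libraries, and amplitudes are peak to trough. P-values were adjusted by Benjamini-Hochberg over all genes tested, with a threshold of 0.05. The functions were tested on simulated data. No pair of replicates held like counts within sampling noise, with a chi-square per gene of 4.12 to 20.6 over 34 pairs. Gene models were matched by symbol (53009 of 55011), with union exon lengths. Alternatives included DESeq2 1.42.0, other scalings and filters, a replicate block, the length slope, the 6 times as a factor, each tissue alone, and each library or the ZT20 libraries left out.

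The 7 genes and the lists were chosen with earlier results of these data known. All 7 were named throughout, and of each list the called genes, up to 4 by size. Cry2, Foxp3, Pdxk and Alas1, outside that rule, were named after their values were seen. Part of the list of enzymes that modify clock proteins is not reported here. Likeness names the 3 genes with the highest correlation, for genes with at least 5 CPM in both tissues.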

Additional observations from a re-analysis of the deposited data

How the results depend on the processing

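Between the tissues, 4 to 6 of the 7 genes were called under every alternative, the changes being Dbp, called with no filter (0.37, adjusted p = 0.0477), without ZT20 (0.49) and without any 1 of 5 libraries, and Bhlhe41, untested with a mean of at least 5 CPM and lost without VAT ZT0 C or VAT ZT20 C. Library totals turned Dbp (-0.0125), Tef (-0.22) and Csnk1d (-0.21) below 0. The Tef wave was called in both tissues under every alternative run. The numbers of genes with a called wave moved far more. In VAT (299 genes) they were 196 with library totals, 675 by DESeq2, 1572 with no filter, 28 with the length slope, 17 without ZT20, 813 with the 6 times as a factor and 42 with VAT alone. In spleen (316) they were 854, 1446 and 98 by DESeq2, with no filter and with the slope, and 584 with spleen alone. For the difference of waves (1) they were 0 with library totals or RLE factors, 22 by DESeq2, 1547 with no filter, 3 with the slope and 24 without ZT20. Of the 7 genes, no filter gave 4 waves in VAT in place of 1, and DESeq2 and no filter each gave 1 difference of waves (Tef) in place of 0. The causes were not tested. Leaving out 1 library, genes called numbered 54 (without VAT ZT20 A) to 1008 (without VAT ZT0 C) in VAT, 98 (without spleen ZT16 B) to 569 (without spleen ZT16 A) in spleen and 0 to 11 for the difference, while the calls of the 7 genes stayed at 1, 1 and 0.

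The labels do not say whether VAT and spleen libraries of the same letter came from 1 animal, and letters were not used as pairs in the main fit. Correlations were taken on departures from mean levels and not on whole profiles, and they cannot decide the pairing. VAT and spleen libraries of the same time and letter correlated at -0.112 to 0.0575 over 17 pairs. Those of the same time and another letter correlated at -0.0963 to 0.102 over 34 pairs, and 4 of 17 VAT libraries were closest to their own letter. With the letter as a replicate block, 124 genes had a wave in VAT, 171 in spleen and 0 a difference, and no call among the 7 genes changed. The difference of the Tef waves then had an adjusted p of 0.188, and of 0.549 with a replicate block within time. The block ended the VAT wave calls of Arntl, Nr1d2, Il2ra and Fkbp5 (adjusted p = 0.0589 to 0.086) and, in both forms, the Csnk1d call (0.0523 and 0.0576). Bhlhe41, and Hlf and Ciart in spleen, had few counts per library, which leaves their values imprecise. The part of depth in their missing wave calls was not tested. In the main fit the waves of Dbp, Nfil3 and Bhlhe40 could not be told from the spread between libraries. With no filter on low counts edgeR called the VAT waves of Nfil3 (adjusted p = 0.00234), Bhlhe40 (0.0397) and Bhlhe41 (0.0113).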
